A study of Mus musculus with 2 samples.

Results

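The 9 genes described here encode transcription factors and transcriptional inhibitors that set T-cell lineage and effector fate: Zbtb16, Zbtb7b, Runx3, Tbx21, Eomes, Gata3, Id2, Id3 and Maf. They are a named set of 9 of the 31053 genes in the count tables. Their transcripts were counted in single meningeal T cells, taken from the membranes that surround the brain, of wildtype C57BL/6 mice at 7 months of age without treatment. Flow cytometry gave 3 sorted populations, mucosal-associated invariant T (MAIT), CD4 and CD8, which were pooled in proportions of 1 to 4 to 4. That pool was divided at random between 2 libraries made with the 10x Genomics 5' kit, so the libraries are technical parts of 1 pool and not separate animals. How many animals went into the pool is not given in the sources. The stated purpose was to compare the transcriptomes of meningeal MAIT cells with those of CD4 or CD8 T cells.

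In the thymus, Zbtb7b (ThPOK) directs T cells to the CD4 lineage and Runx3 to the CD8 lineage, each acting against the other, while Gata3 acts upstream of Zbtb7b and later in type 2 helper cells and tissue regulatory T cells. In mature cells the T-box factors Tbx21 (T-bet) and Eomes drive cytotoxic and interferon-gamma programmes. Id2 and Id3 have no DNA-binding region of their own and act by holding E proteins away from E-boxes. Zbtb16 (PLZF) is the master regulator of innate-like T cells, among them MAIT cells, and Maf (c-Maf) acts in type 17, follicular helper and regulatory cells.

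The files do not say which cell came from which sort gate, so cells were grouped by the unique molecular identifiers (UMIs, counted transcript molecules) of the sorting lineages. The CD8 gate held cells with at least 1 UMI of Cd8a or Cd8b1 and none of Cd4 or Trav1. The CD4 gate held cells with a Cd4 UMI and none of Cd8a, Cd8b1 or Trav1. The Trav1 gate held cells with a UMI of Trav1, the V segment of the invariant MAIT receptor, whatever their coreceptors. Cells needed 200 or more genes and less than 10% of UMIs from mitochondrial genes, which left 609. Of these, 234 fell into the CD8 gate, 85 into the CD4 gate and 36 into the Trav1 gate. A further 9 cells held both coreceptors, and 245 held none of the gate genes and could not be placed. Levels below are UMIs of a gene per 1000000 UMIs of a gate (CPM), with exact 95% Poisson intervals, and detection is the share of cells with at least 1 UMI, with exact 95% Clopper-Pearson intervals. These intervals cover counting error only. There is 1 pool, so no test across animals was possible and no p-value is given.

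Promoters are shown here for Eomes and Gata3, which passed the rule of size given below in more than 1 comparison and have a RefSeq window, with Tbx21 beside Eomes because both are T-box genes, and Runx3 because its first promoter carries the motif of its own protein family. Each is the 250 bases before a RefSeq transcript start (GRCm38.p6, mm10), read along the gene's strand. Capitals mark matches on either strand to 4 motifs, the E-box CAGNTG, the Runx motif TGTGGT, the T-box motif GGTGTG and the GATA motif GATAA; no match overlapped another. The Eomes window lies at chr9:118477939-118478188 on the plus strand, Tbx21 at chr11:97115332-97115581 on the minus strand, Gata3 at chr2:9878601-9878850 on the minus strand, and the first of the Runx3 starts at chr4:135120395-135120644 on the plus strand.
Eomes: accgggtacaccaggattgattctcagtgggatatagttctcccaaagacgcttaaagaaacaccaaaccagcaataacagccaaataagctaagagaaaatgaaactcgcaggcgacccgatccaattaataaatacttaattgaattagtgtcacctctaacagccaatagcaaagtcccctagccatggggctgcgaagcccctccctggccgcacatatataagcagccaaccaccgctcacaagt
Tbx21: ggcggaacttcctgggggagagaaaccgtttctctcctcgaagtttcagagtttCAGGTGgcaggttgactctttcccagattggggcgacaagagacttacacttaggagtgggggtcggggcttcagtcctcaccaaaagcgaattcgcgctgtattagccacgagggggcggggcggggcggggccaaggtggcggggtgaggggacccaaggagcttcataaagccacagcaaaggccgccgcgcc
Gata3: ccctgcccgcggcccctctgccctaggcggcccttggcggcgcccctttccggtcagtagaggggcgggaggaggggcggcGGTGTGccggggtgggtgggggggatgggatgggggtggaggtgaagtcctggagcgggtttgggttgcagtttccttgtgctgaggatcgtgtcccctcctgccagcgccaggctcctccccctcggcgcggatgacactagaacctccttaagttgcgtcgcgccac
Runx3: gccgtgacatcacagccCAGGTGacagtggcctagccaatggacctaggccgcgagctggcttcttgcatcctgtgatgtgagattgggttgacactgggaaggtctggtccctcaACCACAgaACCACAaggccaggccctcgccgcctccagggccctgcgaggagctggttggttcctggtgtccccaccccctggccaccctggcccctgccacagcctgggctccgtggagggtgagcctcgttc

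The Runx3 window held 2 Runx motifs side by side and 1 E-box, the Tbx21 window 1 E-box, and the Gata3 window 1 T-box motif. The Eomes window held none of the 4. Among 32851 windows of the same length, 44.8% held the E-box, 14.05% the Runx motif, 16.3% the T-box motif and 22.6% the GATA motif, so such matches are common. The second Runx3 start, at chr4:135152295-135152544, held no match. RefSeq windows were matched for 7 of the 9 members; Zbtb16 and Maf were not matched. In mm10 with GENCODE M21 all 9 genes are annotated as protein-coding.

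Library 1 had 401 barcodes and 1202401 UMIs, and library 2 had 215 barcodes and 660814 UMIs; no barcode was shared. The gated cells of the 2 libraries differed although the pool was split at random. The CD8 gate took 48.0% of kept cells in library 1 and 20.7% in library 2, and the Trav1 gate 3.28% and 10.8%. The Trav1 gate also differed in content: in library 1, 10 of its 13 cells had a Cd8a UMI and 4 had a UMI of Tmem176a, a marker of type 17 MAIT cells, against 2 and 22 of the 23 cells in library 2. Its 8 type 17 MAIT markers all had UMIs and summed to 1495 CPM in library 1 and 3288 CPM in library 2. The T-cell receptor and CD3 markers were present in 230 of 234, 85 of 85 and 36 of 36 cells of the CD8, CD4 and Trav1 gates. The invariant natural killer T-cell segments Trav11 and Traj18 were at 0 in these gates. In all kept cells they had only 1 UMI, of Trav11 in a cell with both coreceptors. Their absence from the gates therefore cannot show that such cells are missing. Because the content of the Trav1 gate differed between the libraries, member levels in it are given per library. Genes named from the lists are given with their Trav1-gate UMIs in each library. Lineage markers not used by the gates were less even. A CD8-side marker (Ccl5, Nkg7, Gzmk or Cd160) was in 229 of 234 CD8-gate cells but also in 35 of 85 CD4-gate cells. A CD4-side marker (Cd40lg, Foxp3, Ctla4 or Tnfrsf4) was in 71 of 85 CD4-gate and 42 of 234 CD8-gate cells. Median depth was 3149 UMIs per cell in the CD8 gate, 2557 in the CD4 gate and 3488.5 in the Trav1 gate. Detection was repeated after thinning each cell to 1000 UMIs.

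**Figure D1:**
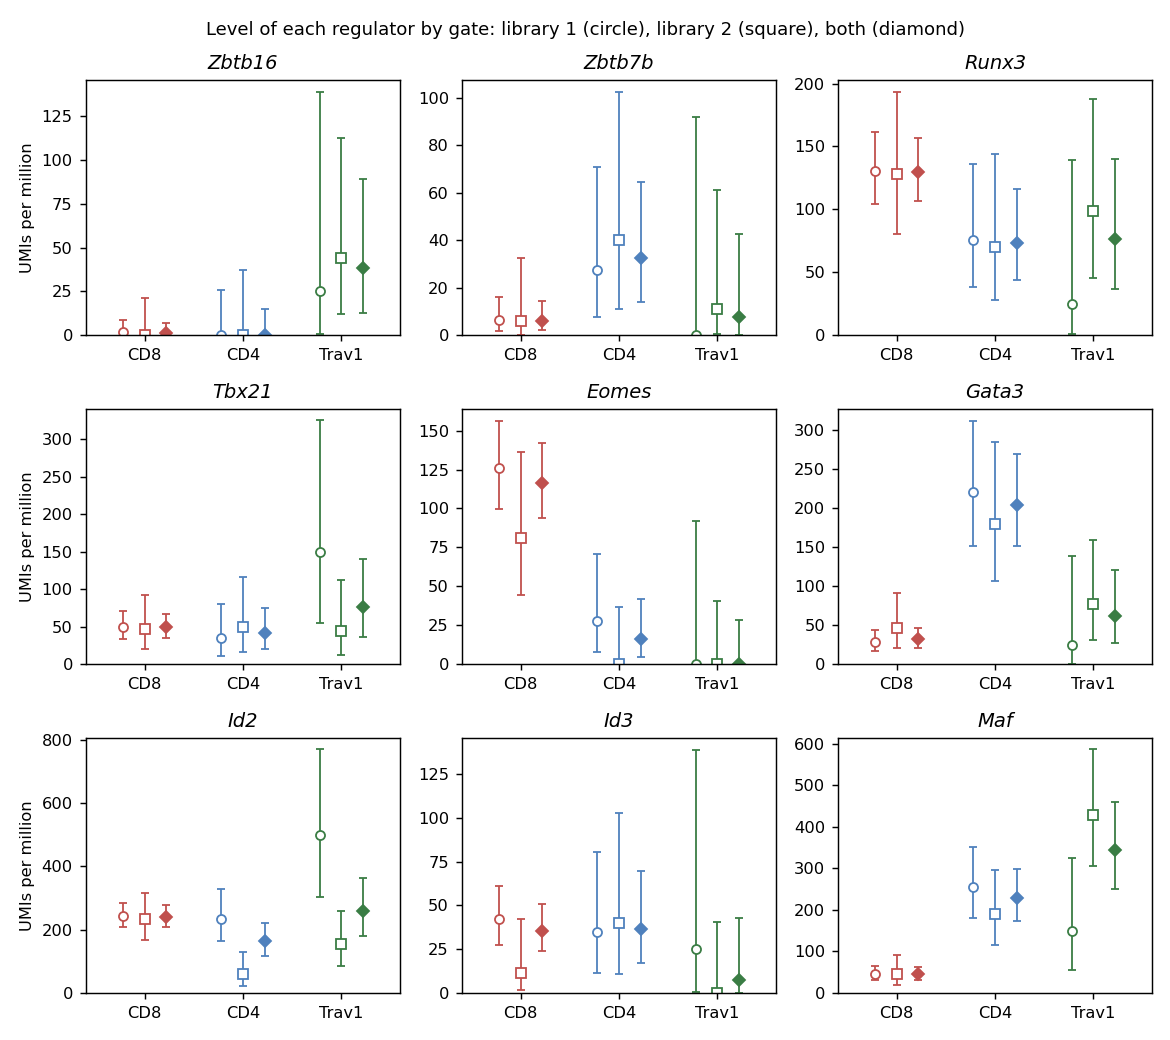
Level of each regulator in UMIs per 1000000 (CPM, vertical axes, linear, each gene on its own scale) in the CD8, CD4 and Trav1 gates. Circles are library 1, squares library 2 and diamonds both, with 95% Poisson counting intervals. Eomes is high in the CD8 gate, Gata3 in the CD4 gate and Maf in the CD4 and Trav1 gates, while the Id2 levels of the CD4 and Trav1 gates differ between the libraries.

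Between the CD8 and CD4 gates, Eomes was higher in the CD8 gate, and Gata3 and Maf were higher in the CD4 gate. A difference was called by a rule of size, which asked for 2-fold or more with the libraries summed, a matching sign in both, and 10 or more UMIs in the gate with the higher level; a gene with 0 UMIs in the other gate counted as past 2-fold. Between the CD8 and CD4 gates 13.6% of the 6719 genes tested passed that rule, 9.11% higher and 4.54% lower in the CD8 gate. The interval of the ratio included 1 for 50.8% of those genes, so a call of the rule can lie within counting error. Requiring 2-fold also with 3 counts in place of 0, an alternative added after seeing the data, left 12.5% of genes. Of the 7 members tested the 3 named passed in either case, with intervals that exclude 1. The median log2 ratio (CD8 over CD4) was 0.26 for the 7 members and -0.04 for all genes tested. Zbtb16 and Zbtb7b had under 10 UMIs in both gates and were not tested.

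Zbtb7b, the CD4-lineage factor, was sparse. It had 8 UMIs in the CD4 gate, 4 in each library (27.6 and 40.0 CPM), and 5 in the CD8 gate (6.21 CPM in library 1 and 5.81 in library 2). The CD4 gate was higher in each library, by 5.33-fold over both (95% interval 1.54 to 20.7), with too few UMIs for the rule of size. The Trav1 gate held 1 Zbtb7b UMI. Among the 588 cells with a T-cell marker, 13 of the 22 with Zbtb7b also had Cd40lg, the CD40 ligand of helper T cells (59.1%), against 30.7% of the rest. Cells with Zbtb7b were deeper, at a median of 3370.5 UMIs against 2701, and after thinning the order turned, with 1 of 8 cells (12.5%) against 19.6%. In the CD4 gate 6 of 7 cells with Zbtb7b had Cd40lg, against 55.1%. Foxp3, the regulatory T-cell factor, was in none of the 22, which allows a share of up to 13.6%, and in 4.24% of the rest.

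Runx3, the CD8-lineage factor, stood at 130.5 CPM in library 1 and 128 CPM in library 2 of the CD8 gate, and at 76.0 and 70.0 CPM in the CD4 gate. The CD8 gate was thus higher in each library. Over both, the ratio was 1.77 (95% interval 1.07 to 3.09), short of 2-fold. Detection was 33.3% of CD8-gate cells and 17.6% of CD4-gate cells, but 9.62% and 10.0% after thinning, so the order of the shares was not kept at equal depth. The Trav1 gate had 1 UMI in library 1 (24.9 CPM) and 9 in library 2 (99.0 CPM), between which the counting intervals overlap. Runx3 was also found in 2 of the 21 kept cells that lacked every T-cell marker (9.52%, median depth 3850 UMIs), against 26.2% of the 588 T cells (median 2728). In CD8-gate cells, 66.7% of those with Runx3 had Gzmk and 50.6% of those without, and 35% against 31.9% after thinning. Itgae, the CD103 integrin chain, was in 2 of 78 CD8-gate cells with Runx3.

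Gata3 ran the other way. It stood at 221 CPM in library 1 and 180.0 CPM in library 2 of the CD4 gate, and at 28.0 and 46.5 CPM in the CD8 gate, so the counting intervals of the gates did not overlap in either library. Over both libraries the CD4 gate was 6.41-fold higher (95% interval 3.92 to 10.7). Detection was 30.6% of CD4-gate cells and 9.83% of CD8-gate cells, and 16.2% and 4.81% after thinning. CD4-gate cells with Gata3 held 1.92 UMIs on average and 15 of the 26 held more than 1, whereas 3 of the 23 in the CD8 gate did. None of the 21 cells without a T-cell marker had Gata3, which allows up to 14.3%.

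Eomes stood at 126 CPM in library 1 and 81.3 CPM in library 2 of the CD8 gate. The CD4 gate held 4 UMIs in 2 cells, all in library 1 (27.6 CPM), and none in library 2. Over both libraries the CD8 gate was 7.12-fold higher (95% interval 2.69 to 26.7). Detection was 26.9% of CD8-gate cells and 2.35% of CD4-gate cells, and 9.62% and 1.25% after thinning. In the Trav1 gate Eomes was in 0 of 36 cells, so a share of up to 8.33% remains possible. Natural killer markers, whose cells also express Eomes, had UMIs for 4 of 7 in the CD8 gate (189 to 401 CPM summed per library), 2 of 7 in the CD4 gate (0 to 13.8 CPM) and 3 of 7 in the Trav1 gate (0 to 224 CPM), with Ncr1 and Kit at 0 in each; their part in the Eomes difference was not tested. Of the 9 members, Eomes and Zbtb16 were the 2 with no UMI in 1 of the 3 gates.

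Tbx21, the other T-box gene, passed the rule of size in no comparison with the gates as defined above. With at least 2 coreceptor UMIs per gated cell, it was called higher in the CD8 and in the Trav1 gate than in the CD4 gate. With the gates as defined, Tbx21 stood at 49.7 and 46.5 CPM in the CD8 gate and at 34.5 and 50.0 CPM in the CD4 gate (libraries 1 and 2). The ratio over both was 1.2 (95% interval 0.59 to 2.69), and its direction differed between the libraries. In the CD4 gate of library 2, 4 of the 5 UMIs came from 1 cell. The Trav1 gate stood at 149.5 CPM in library 1, from 6 UMIs, and at 43.99 CPM in library 2, from 4. Detection was 13.7%, 8.24% and 25.0% in the CD8, CD4 and Trav1 gates (38.5% and 17.4% in libraries 1 and 2 of the Trav1 gate), with overlapping intervals, and 3.85%, 3.75% and 8.33% after thinning. The pattern of the 2 T-box genes thus differed: Eomes UMIs lay mostly in the CD8 gate and Tbx21 UMIs in all 3.

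**Figure D2:**
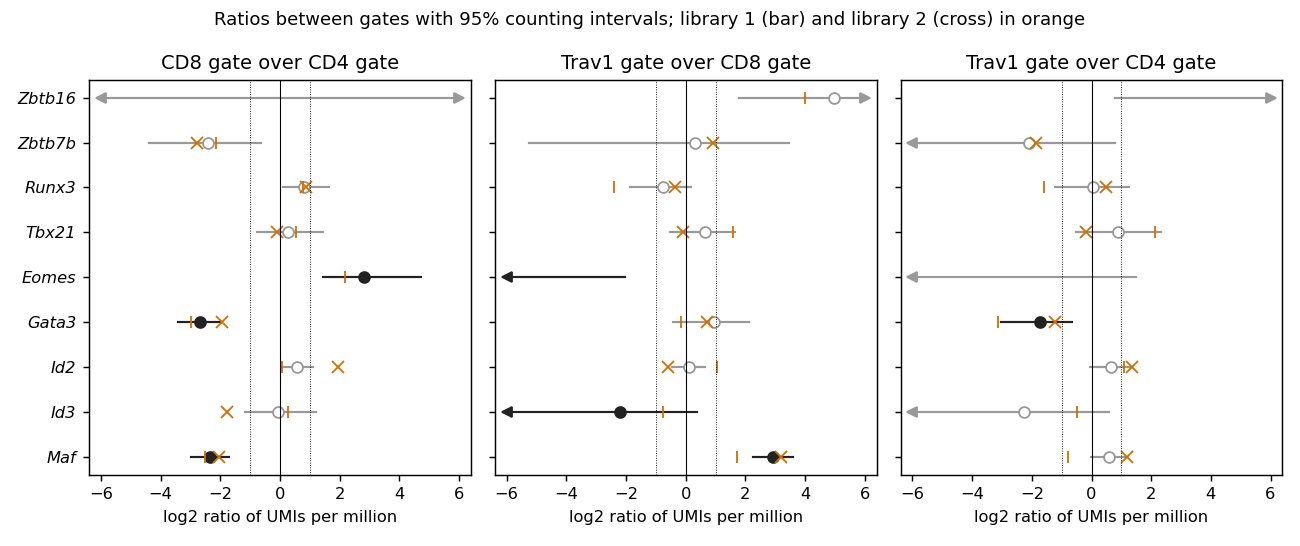
Ratio of each regulator between gates (horizontal axes, log2 of the ratio of CPM values) with 95% counting intervals; orange bars and crosses are libraries 1 and 2, dotted lines mark 2-fold, arrows run past the axis, and black marks a difference past the rule of size. Eomes, Gata3 and Maf pass between the CD8 and CD4 gates, Eomes, Id3 and Maf between the Trav1 and CD8 gates, and Gata3 between the Trav1 and CD4 gates.

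Against the CD8 gate, the Trav1 gate was high in Maf and lacked Eomes. Of 6697 genes tested 17.2% passed the rule, 4.14% higher and 13% lower in the Trav1 gate. The interval included 1 for 67.1% of those genes, and 12.2% passed with 3 counts in place of 0. Of the 7 members tested 3 passed in either case: Maf was higher, Eomes and Id3 lower, with the Id3 interval including 1. The median log2 ratio (Trav1 over CD8) was 0.10 for the members and 0.05 for all genes tested, or 0.13 with genes at 0 set to their bound. Eomes was 5.09-fold lower, taking 3 counts over the gate in place of 0, against 95 UMIs in the CD8 gate. By its 95% interval it was at least 4.06-fold lower.

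Maf stood at 45.0 and 46.5 CPM in the CD8 gate, at 256 and 190.1 CPM in the CD4 gate, and at 149.5 and 429 CPM in the Trav1 gate (libraries 1 and 2). The CD8 gate was lowest in both libraries, and the order of the CD4 and Trav1 gates differed between them. The Trav1 gate was 7.57-fold higher than the CD8 gate over both libraries (95% interval 4.79 to 12.0), at log2 ratios of 1.73 in library 1, from 6 UMIs in the Trav1 gate, and 3.21 in library 2. Library 1 alone did not reach the 10-UMI minimum of the rule. The CD4 gate was 5.05-fold higher than the CD8 gate (95% interval 3.27 to 7.86). Between the Trav1 and CD4 gates the ratio was 1.5, with an interval that includes 1 (0.99 to 2.26). Detection was 10.7%, 38.8% and 58.3% of cells of the CD8, CD4 and Trav1 gates (38.5% and 69.6% in libraries 1 and 2 of the Trav1 gate), and 5.29%, 20% and 25.0% after thinning. Of the 21 cells without a T-cell marker, 7 had a Maf UMI (33.3%), with 9 UMIs in all; the part of free RNA in these was not tested. Macrophage markers summed to 87.0 CPM in the CD8 gate, 0 in the CD4 gate and 22.9 CPM in the Trav1 gate (10, 0 and 3 of the 10 markers with a UMI). Gamma delta T-cell markers summed to 673 and 341 CPM in the Trav1 gate (4 of 6 with a UMI, Trdc and Trdv4 at 0), 250 and 401 CPM in the CD8 gate (6 of 6) and 20.7 and 30.0 CPM in the CD4 gate (3 of 6). The part of either marker list in the Maf level was not tested.

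Within the Trav1 gate, Maf went with Tmem176a, a split chosen after the values were seen. Of 26 cells with a Tmem176a UMI, 19 had Maf (73.1%) and 6 had Gata3. Of 10 cells without one, 2 had Maf, none had Gata3, and 9 had Ccl5, a CD8 effector chemokine, with 324 UMIs. Of those 10 cells, 9 came from library 1, and of the 26 with Tmem176a, 22 came from library 2. Library and Tmem176a therefore cannot be told apart here. Median depth was 3863 UMIs with Tmem176a and 2894.5 without. Tbx21 was in 6 of the 26 and 3 of the 10, Id2 in 13 and 6, and Eomes in none of either. All 6 Trav1-gate cells with Gata3 also had Maf (54.1 to 100%), against 15 of the 30 without Gata3 (31.3 to 68.7%), with overlapping intervals. Of the 6 cells, 5 came from library 2. Median depth was 3967 UMIs with Gata3 and 3421 without, and 1 cell with Gata3 remained after thinning.

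Zbtb16, the innate-like factor, had 5 UMIs in 5 cells of the Trav1 gate, 1 in library 1 and 4 in library 2 (24.9 and 43.99 CPM). The CD8 gate held 1 UMI and the CD4 gate none. The Trav1 gate was 31.1-fold higher than the CD8 gate, from 5 UMIs against 1 (95% interval 3.48 to 1473). It was 3.11-fold higher than the CD4 gate with 3 counts in place of 0, and the lower 95% limit of that ratio was 1.71. These counts are below the 10 UMIs of the rule of size. Another 13 UMIs lay in 11 of the 245 cells with no gate gene. Of the 17 T cells with Zbtb16, 12 had Tmem176a (70.6%), against 14.5% of the rest, and 9 had Il18r1, an interleukin-18 receptor chain (52.9% against 19.8%). Library 2 held all 9 of the Il18r1 cells. Maf was in 11 of the 17 cells with Zbtb16 (64.7%, against 27.7% of the rest). Library 2 held 12 of the 17 cells and 9 of the 11 with Maf. Median depth was 3519 UMIs in cells with Zbtb16 and 2697 in the rest. After thinning 4 cells with Zbtb16 remained, 1 of them with Maf.

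Gata3 was the member that passed between the Trav1 and CD4 gates, where 18.5% of 3502 genes (7% higher and 11.5% lower) and 1 of 5 members tested did. The interval included 1 for 45.9% of those genes, and 18.0% passed with 3 counts in place of 0. The Trav1 gate stood at 24.9 CPM in library 1, from 1 UMI, and 77.0 CPM in library 2, and was 3.35-fold lower than the CD4 gate over both (95% interval 1.57 to 8.17). The median log2 ratio (Trav1 over CD4) was 0.59 for the 5 members and -0.10 for all genes tested. With 1 library at a time 3 members passed: Gata3 in each, with Id2 and Maf higher in library 2, and Id2 higher and Runx3 lower in library 1. Against the CD8 gate the Gata3 ratio of the Trav1 gate was 1.92 (95% interval 0.75 to 4.36).

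**Figure D3:**
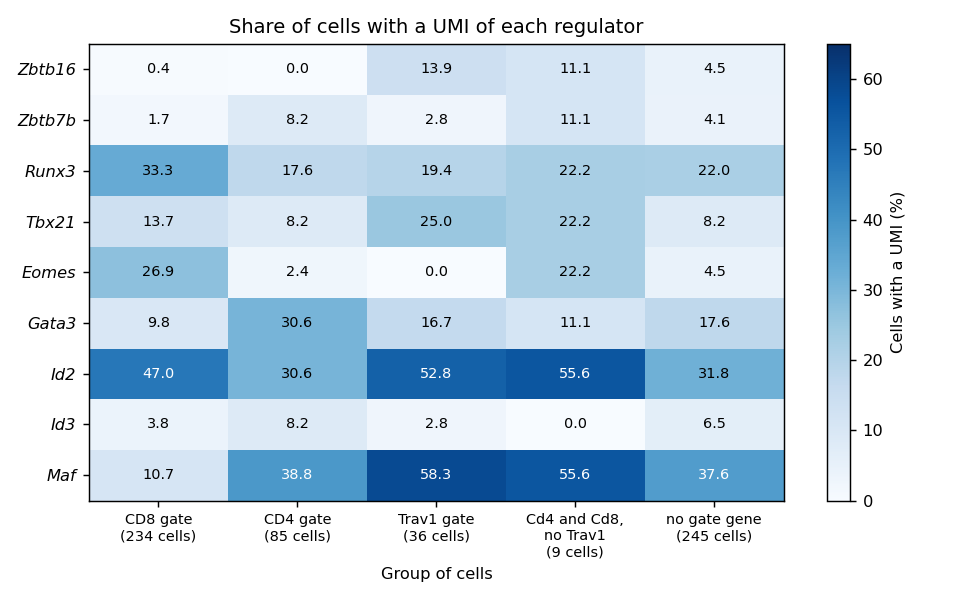
Share of cells with at least 1 UMI of each regulator (colour and printed value, percent) in the CD8, CD4 and Trav1 gates, in cells with both coreceptors and in cells with no gate gene. Eomes is in 26.9% of CD8-gate cells and none of the Trav1-gate cells, Gata3 is highest in the CD4 gate, and Maf is in 58.3% of Trav1-gate cells.

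Id2, which restrains E proteins in effector and innate-like cells, was found in 47.0%, 30.6% and 52.8% of cells of the CD8, CD4 and Trav1 gates (69.2% and 43.5% in libraries 1 and 2 of the Trav1 gate). The CD8 gate stood at 244 CPM (library 1) and 232 CPM (library 2). In the CD4 gate it was 235 CPM (95% interval 163 to 328) in library 1 and 60.02 CPM (22.02 to 131) in library 2. In the Trav1 gate it was 498 CPM (304 to 769.8) and 154 CPM (84.2 to 258). In these 2 gates the libraries differed by more than their counting error, so the CD8 over CD4 ratio was near 1 in library 1 (log2 0.05) and 1.95 on the log2 scale in library 2. The Trav1 gate was above the CD4 gate in both libraries, at log2 ratios of 1.09 and 1.36, each past 2-fold. Summed over both, the log2 ratio was 0.67 (95% interval -0.04 to 1.36), lower than in either library, because 23 of 36 Trav1-gate cells but 34 of 85 CD4-gate cells came from library 2. No Id2 comparison over both libraries passed the rule of size.

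Most Id3 UMIs lay outside the T cells in library 1. Of its 167 UMIs over both libraries, 80.8% lay in the 21 cells that lacked every T-cell marker. By library this was 128 of 152 UMIs in library 1 (84.2%) and 7 of 15 in library 2 (46.7%), the 7 from 1 cell. Of the 21 cells, 12 had Id3 (57.1%), at 1416 CPM against 18.3 CPM in the 588 T cells. All 6 cells with at least 10 Id3 UMIs lacked T-cell markers. Among the 21, Id3 was in all 7 cells with a fibroblast marker and all 6 with an endothelial marker, 1 cell having both, and in none of the 9 with neither. In the CD8 gate 1 cell without T-cell markers gave 17 of the 29 Id3 UMIs. That gate stood at 41.9 CPM in library 1 and 11.6 CPM in library 2, the CD4 gate at 34.5 and 40.0 CPM, and the Trav1 gate held 1 UMI. The Trav1 gate was 4.66-fold lower than the CD8 gate by the rule of size, with an interval that includes 1 (0.77 to 190.2). With only cells that had a T-cell marker, an alternative added after seeing the data, the log2 ratio went from -2.22 to -0.96 and the call was lost. Fibroblast markers (3 of 4 with a UMI) lay in 1 cell of the CD8 gate, at 18.4 CPM, and were at 0 in the CD4 and Trav1 gates; endothelial markers summed to 23.3, 16.3 and 30.5 CPM in the CD8, CD4 and Trav1 gates, with 3, 1 and 1 of 4 having a UMI.

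**Figure D4:**
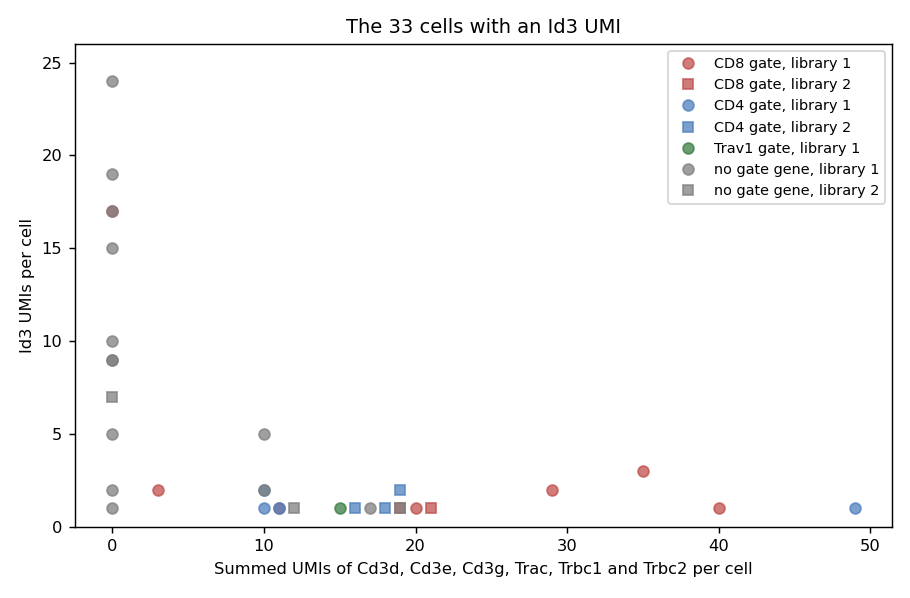
Each point is 1 of the 33 cells with an Id3 UMI, by its summed UMIs of 6 T-cell markers (horizontal axis) and its Id3 UMIs (vertical axis); colour gives the gate and shape the library. The 6 cells with at least 10 Id3 UMIs all sit at 0 T-cell marker UMIs.

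In T cells Id3 was rare and was often found with Tcf7 and Ccr7. Of the 21 T cells with Id3, 12 had Tcf7, the factor of naive and memory T cells (57.1%, against 28.0% of the rest), and 7 had Ccr7, the lymph-node homing receptor (33.3% against 6.88%). The intervals did not overlap for either gene (34.0 to 78.2 against 24.4 to 31.9, and 14.6 to 57.0 against 4.94 to 9.28). Lef1 was in 4 of the 21 (19.0% against 15.3%). Cells with Id3 were deeper, at a median of 3868 UMIs against 2698, and only 3 remained detected after thinning.

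Cells with Eomes more often had Gzmk. In the CD8 gate 51 of 63 cells with Eomes had Gzmk, a granzyme of memory-like CD8 cells (81%, 69.1 to 89.8), against 46.8% of those without Eomes (39.1 to 54.6). By library this was 43 of 52 cells with Eomes and 8 of 11. Il2rb, the shared interleukin-2 and interleukin-15 receptor chain, was in 71.4% of the cells with Eomes and 48.5% of the others, whereas Gzmb, the granzyme of killer cells, was in 17.5% of each. After thinning the Gzmk shares were 45.0% and 30.9%, on 20 cells with Eomes. Eomes and Tbx21 shared 8 cells of the CD8 gate: 12.7% of cells with Eomes and 14.04% of those without had Tbx21, with overlapping intervals. Runx3 was in 33.3% of CD8-gate cells with Eomes and 33.3% of those without.

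Tbx21 went with interferon-gamma over all T cells, where 23 of 70 cells with Tbx21 had Ifng (32.9%, 22.1 to 45.1) against 18.3% (15.1 to 21.9), and 20.8% against 10.5% after thinning. Within the CD8 gate the Ifng shares were 25.0% and 23.3%. Within the CD4 gate 4 of 7 cells with Tbx21 had Ifng, against 16.7%. Cxcr3, a T-bet target receptor, was in 51.4% and 38.2% of T cells with and without Tbx21, and in 25.0% and 19.2% after thinning. The CD4 gate ran the other way, with 1 of 7 cells (14.3%) against 39.7%.

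Id2 went with Cxcr6, a chemokine receptor of tissue-resident T cells. In the CD8 gate 54.5% of cells with Id2 had Cxcr6 (44.8 to 64.1) against 27.4% (19.8 to 36.2), and in the CD4 gate 73.1% (52.2 to 88.4) against 20.3% (11.0 to 32.8). Library 1 held 21 of the 26 CD4-gate cells with Id2, against 51 of all 85 cells of that gate. The part of the library in the CD4-gate gap was not tested. After thinning, the Cxcr6 shares were 31.6% against 21.2% in the CD8 gate and 35.7% against 16.7% in the CD4 gate. They rest on 38 and 14 cells with Id2. In the Trav1 gate nearly all cells had Cxcr6, 17 of 19 with Id2 and 16 of 17 without. Id2 was also found with Tbx21 in the CD8 gate (20.9% against 7.26%), but cells with Id2 had a median of 3595.5 UMIs against 2676, and after thinning the shares were 2.63% and 4.12%.

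Over all T cells, Gata3 went with Areg, the tissue-repair growth factor amphiregulin. Of 99 T cells with Gata3, 19 had Areg (19.2%, 12.0 to 28.3) against 6.34% (4.35 to 8.88), and 13.95% against 3.22% after thinning. Both genes were higher in the CD4 than in the CD8 gate, and the part of the gates in this link was not tested. Foxp3 was in 8.08% and 3.27% of T cells with and without Gata3, with overlapping intervals, and 7 of the 8 cells were in library 1. Ctla4 was in 27.3% and 16.8% over all T cells, and in 23.1% and 33.9% within the CD4 gate. Il1rl1, the interleukin-33 receptor, was in 3 of the 99. Gata3 and Maf shared 41 T cells (41.4% of cells with Gata3 against 26.2% of the rest had Maf), yet within the CD4 gate, where both were common, the shares were 34.6% and 40.7%.

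Maf went with Icos, a costimulatory receptor of helper and innate-like cells, in 51.5% of T cells with Maf (43.7 to 59.2) against 23.2% (19.2 to 27.5), and in 34.2% against 15.7% after thinning. The same direction held in the CD8 gate (36.0% against 13.9%), the CD4 gate (57.6% against 40.4%) and the Trav1 gate (76.2% against 40.0%). Il10 was in 4 cells with Maf and 1 without.

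**Figure D5:**
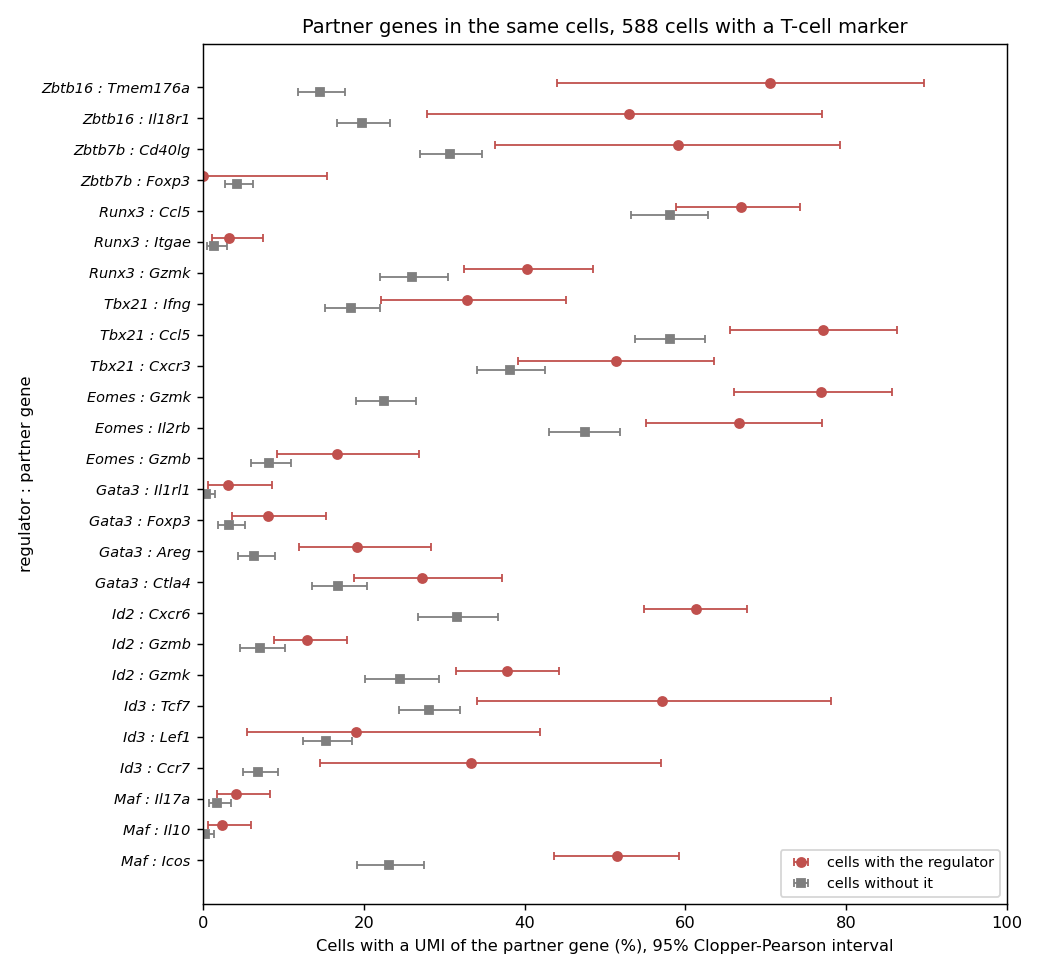
Share of T cells (horizontal axis, percent, 95% Clopper-Pearson intervals) with a UMI of the partner gene, among cells with the regulator (red circles) and without it (grey squares), over the 588 cells with a T-cell marker. Among the wide gaps are those of Eomes with Gzmk, Zbtb16 with Tmem176a and Il18r1, Id2 with Cxcr6, and Maf with Icos. Id3 with Tcf7 and Zbtb7b with Cd40lg are also among them. Depth was not equalised in the plot, and the order of Zbtb7b with Cd40lg turned after thinning.

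The number of members seen per cell moved with depth. At least 3 of the 9 were found in 17.5% of CD8-gate cells, 14.1% of CD4-gate cells and 36.1% of Trav1-gate cells, and none in 22.2%, 16.5% and 11.1%. By library, at least 3 were found in 4 of 13 and 9 of 23 Trav1-gate cells, and in 11 of 51 and 1 of 34 CD4-gate cells. CD8-gate cells with at least 3 members had a median of 4327 UMIs and those with none 2138. With few UMIs of a member per cell, fewer expressing cells and less RNA per cell cannot be told apart.

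Genes linked to the members differed between the gates, in lists chosen with earlier results of these data known. Of all genes tested, 9.11% were higher and 4.54% lower in the CD8 than in the CD4 gate, at a median log2 ratio of -0.04. These shares were 4.14% and 13% for the Trav1 over the CD8 gate (median 0.05). For the Trav1 over the CD4 gate they were 7% and 11.5% (median -0.10). Of 18 genes associated with T-bet and Eomes, all tested, 12 were higher in the CD8 than in the CD4 gate and none lower. Among the 12 were Gzmb (31.8-fold, from 106 UMIs against 1), the pore-former Prf1 (15.0-fold, 50 against 1) and the chemokine Ccl3 (3.50-fold with 3 counts in place of 0). The median log2 ratio was 1.85, or 1.83 with genes at 0 set to their bound. Against the CD8 gate the Trav1 gate was lower for 7 of the 18 and higher for 1, with Gzma 18.4-fold lower (2 UMIs against 229), Prf1 8.03-fold lower (1 against 50) and Ccl4 7.13-fold lower, and a median of -0.95. The Gzma and Prf1 UMIs of the Trav1 gate were all in library 1, and those of Ccl4 were 4 and 3. Against the CD4 gate 4 of 11 were higher in the Trav1 gate, led by Il18rap (6.85-fold), Klrd1 (4.86-fold) and Il18r1 (3.19-fold), with 2 and 9, 10 and 3, and 8 and 33 Trav1-gate UMIs in libraries 1 and 2. Tbx21 itself passed in none of these comparisons with the gates as defined above.

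Of 11 genes associated with Gata3, 5 were tested between the CD8 and CD4 gates and 4 were lower in the CD8 gate: Areg by 13.3-fold, the interleukin-2 receptor chain Il2ra by 5.42-fold, the checkpoint receptor Ctla4 by 3.70-fold, and Il7r, with a median log2 ratio of -2.44. The fifth, Il4, had 44 UMIs in the CD4 gate of library 1 and none in the CD8 gate, with no UMI of library 2 in either. The Trav1 gate was higher than the CD8 gate for 2 of 4, Il2ra (16.3-fold, 4 and 17 Trav1-gate UMIs in libraries 1 and 2) and Il7r (5.09-fold, 22 and 117). Against the CD4 gate 2 of 5 were lower, Areg (17.1-fold, 2 UMIs against 64) and Ctla4 (2.43-fold, 3 and 8 Trav1-gate UMIs by library), and Il2ra was higher (3.02-fold). Both Areg UMIs of the Trav1 gate were in library 2.

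Of 11 genes associated with Maf, 3 were tested between the Trav1 and CD8 gates and all 3 were higher in the Trav1 gate, among them Il17a (37.4-fold, 12 UMIs against 2) and Icos (5.96-fold, 8 and 60 UMIs in libraries 1 and 2). The 12 Il17a UMIs came from 3 cells: 10 from 1 library 1 cell with no Maf UMI, and 1 each from 2 library 2 cells with Maf. The CD4 gate held 65 Il17a UMIs, all in 1 cell with Maf. Between the Trav1 and CD4 gates 1 of the 5 tested passed and was higher, while the median log2 ratio was -1.54. Between the CD8 and CD4 gates 1 of the 4 tested passed, Icos, which was 3.43-fold lower in the CD8 gate. Of 13 genes associated with PLZF, 7 of the 11 tested were higher and 1 lower in the Trav1 than in the CD8 gate, and 8 of the 9 tested were higher than in the CD4 gate. The 1 lower gene, Klrb1c, had 0 UMIs in the Trav1 gate against 17 and does not reach 2-fold with 3 counts in its place. This list shares Icos, among others, with the Maf list, and Il18r1 and Il18rap, among others, with the T-bet list. Il18rap (6.85-fold) and Rora (4.2-fold, 9 and 36 UMIs in libraries 1 and 2) were among those higher than in the CD4 gate. The median log2 ratios were 2.35 against the CD8 gate and 1.67 against the CD4 gate. Between the CD8 and CD4 gates 2 of 10 were higher and 1 lower, and of the 2 Klrb1c does not reach 2-fold with 3 counts in place of 0.

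Genes of the members' own families passed in differing shares, to be read against 13.6%, 17.2% and 18.5% of all genes tested between the CD8 and CD4, the Trav1 and CD8, and the Trav1 and CD4 gates. Of 12 Runx family genes and partners, 9 were tested between the CD8 and CD4 gates and 3 passed. Runx1 was 2.59-fold lower in the CD8 gate, Gata3 was lower, and Runx2 had 16 UMIs in the CD8 gate against 0. With 3 counts in place of 0 Runx2 was 1.60-fold higher, so that 2-fold is not shown for it. None of 9 passed between the Trav1 and CD8 gates, and 1 of 8, Gata3, between the Trav1 and CD4 gates. Of 7 E protein and Id genes, 4 were tested between the Trav1 and CD8 gates and Id3 passed, with an interval that includes 1. None of 4 passed between the CD8 and CD4 gates and none of 2 between the Trav1 and CD4 gates. Of 26 other T-cell fate factors, 20 were tested between the CD8 and CD4 gates, with 1 higher and 4 lower in the CD8 gate. The largest ratios among them, counting both directions together, were those of Stat5b (2.81-fold), Hif1a (2.69-fold) and Ikzf2 (2.22-fold). Of the 5 calls, 1 had an interval that includes 1. The Trav1 gate was higher than the CD8 gate for 4 of 21 and lower for 4, with Batf 8.67-fold lower (1 UMI, in library 1, against 54). Of the 4 lower, Stat5a had 0 UMIs against 15, which is no difference with 3 counts in place of 0. Of the 8 calls between the Trav1 and CD8 gates, 3 had intervals that include 1. The Trav1 gate differed from the CD4 gate for 7 of 14, 1 of them with an interval that includes 1, and Batf was 17.7-fold lower (1 against 33).

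The genes whose log-scaled counts ran closest to each member were sought over the 609 cells and 5461 genes, as a description only, since cells share libraries and depth. For Eomes they were Gzmk (Pearson r = 0.41) and Ccl5 (0.36). For Tbx21 they were Gzma (0.27) and Gm2682 (0.19), for Gata3 Areg (0.20) and Cd4 (0.18), for Id2 Cxcr6 (0.27) and Ctsw (0.24), and for Maf Capg (0.31) and Tmem176a (0.27). Id3 ran with Cd81 (0.52) and Nenf (0.46) over all cells, but with Cd200 (0.27) and Plekhb2 (0.24) over the 588 T cells. Zbtb16 ran with Ckb and Ero1l (both 0.28), Zbtb7b with G3bp1 (0.21) and Myd88 (0.20), and Runx3 with Rcc2 (0.17) and AL590144.2 (0.17), all weak.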

How the data were processed

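Raw UMI counts per gene and cell barcode, as deposited by the authors (whole numbers in the files), were used for both libraries. The submitters' processing notes name Cell Ranger 5.1.0, STAR and mm10, whereas the matrix header gives software version 3.1.0; this was not resolved. Their gene annotation is not given in the sources; gene positions are from GENCODE M21 on mm10 and promoters from RefSeq.

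Counts were summed per gate and scaled to CPM by the gate's total in Python 3.11.15 with numpy 2.4.6, scipy 1.17.1 and pandas 2.3.3. Intervals were exact Poisson, Clopper-Pearson and, for ratios, conditional binomial, at 95%. Where a count was 0, bounds used 3 counts over the gate. These bounds leave out the counting error of the other gate. Cells were thinned to 1000 UMIs (seed 1), which left out 26 CD8-gate and 5 CD4-gate cells. Scrublet in scanpy 1.11.5 called 82 of 609 kept cells (13.5%) as doublets. By gate this was 11.1% of CD8-gate, 20% of CD4-gate and 16.7% of Trav1-gate cells. Called doublets were kept, and leaving them out was an alternative. Further alternatives were TMM scaling (edgeR 4.0.16), other filters, gates and minimums, and each library alone. Likeness used log(1 + UMIs per 10000) and genes in at least 5% of cells.

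The 9 members, partner genes, lists and markers were chosen with earlier results of these data known. Named list genes are up to 3 per list and comparison with the largest ratio past the rule; Il4 and Il7r were named after their values were seen. The lists' counts cover all their genes, and 1 gene is not reported here by name.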

Additional observations from a re-analysis of the deposited data

How the results depend on the processing

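Each comparison was recomputed under 13 alternatives listed at the start and 2 added later. A lower UMI minimum and a lower fold can only add calls, and Trav1 cells without coreceptor UMIs leave the CD8 and CD4 gates as they are, so these are not counted where they could not end a call. The 2 added later are counted throughout. Of these, 3 counts in place of 0 could not end the call of a gene with UMIs in both gates. Keeping only cells with a T-cell marker removed no cell of the CD4 and Trav1 gates, so it could not end a call between them. The calls of Eomes, Gata3 and Maf between the CD8 and CD4 gates held in the other 12, and those of Eomes between the Trav1 and CD8 gates and of Gata3 between the Trav1 and CD4 gates in the other 13; the Eomes ratio to the Trav1 gate has no finite value. Maf between the Trav1 and CD8 gates held in 12 of 13 and was lost without library 2, where 6 UMIs remained (log2 1.73). Id3 held in 7 of 13, and thinning turned its log2 ratio from -2.22 to 0.53. Against 3 members past the rule between the CD8 and CD4 gates, 5 passed with at least 2 coreceptor UMIs per gated cell, Runx3 and Tbx21 being added. Against 1 between the Trav1 and CD4 gates, 3 passed with at least 2 coreceptor UMIs, Tbx21 and Id2 being added as higher in the Trav1 gate. In this comparison 2 passed after thinning, 4 with a minimum of 1 UMI and 2 at 1.5-fold. Using 1 library at a time gave 3 to 4 members between the CD8 and CD4 gates, 2 to 3 between the Trav1 and CD8 gates and 3 in either case between the Trav1 and CD4 gates. The Runx3 ratio between the CD8 and CD4 gates passed 2-fold without Scrublet calls (log2 1.38) and under TMM (1.01). TMM moved the median of all genes from -0.04 to 0.16, from 0.05 to -0.28 and from -0.10 to -0.24 in the 3 comparisons, and the share of higher calls among all calls from 66.7% to 77.7% (CD8 over CD4) and from 24.1% to 12.6% (Trav1 over CD8). The TMM shifts follow from its scaling factors, 0.88 for the CD8 gate, 1.01 for the CD4 gate and 1.12 for the Trav1 gate. Each factor scales all genes of its gate alike. The cause of the other changes was not tested. No paired analysis was possible because the results come from no test; the ratios within each library stand beside the summed ones. Depth limits the members: Zbtb16 and Zbtb7b had under 10 UMIs in each of the 3 gates, and 0 of 36 Trav1-gate cells allows a share of up to 8.33%.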
